A study of Mus musculus with 6 samples.

Results

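The kinesin motor genes of the mouse oocyte were described here from RNA sequencing of oocytes matured in vitro with or without metformin. The members were all protein-coding genes whose GENCODE M21 symbol is Kif followed by a digit, which gave 39 of the 55487 genes in the deposited table. Another 3 Kif symbols of other biotypes (Kif22-ps, Kif4-ps and Kif16bos) were left out. The rule also takes in Kif1bp, whose product binds kinesins and is not itself a motor.

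The metformin group and the control group held 3 libraries each, and the labels describe all 6 as oocytes of Mus musculus. The series title names aged mice, while the labels give no age, strain or genotype. Oocytes of both groups came from females primed with 10 IU of pregnant mare serum gonadotropin, a hormone that drives follicle growth. Fully grown germinal-vesicle oocytes were taken 46 to 48 h later, freed of cumulus cells, and cultured for 16 h in M16 medium until metaphase II. The treated oocytes had metformin, a drug given to people with diabetes that acts on mitochondrial respiration, in the medium, and the control oocytes did not. The protocol lists 10, 20 and 50 µM and does not say which of these the sequenced oocytes received, nor how many oocytes or animals made up a library. The p-values below speak only of the spread among the sampled libraries, part of which may be technical.

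Kinesins are motor proteins that hydrolyse ATP to walk along microtubules or to take tubulin off their ends. In dividing cells they push spindle poles apart, move chromosomes to the spindle equator and build the midzone where the cell is cut. Other kinesins carry organelles, vesicles and RNA, or build cilia. The mouse oocyte has no centrioles, assembles its meiotic spindle from acentriolar microtubule organising centres, and transcribes almost nothing between full growth and fertilisation. Its mRNAs at metaphase II are therefore stored maternal transcripts, and many of them are held or translated through sequences near their 3′ ends.

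Because stored oocyte mRNAs are often controlled from the 3′ end, the last 150 bases of the longest annotated coding transcript were searched on the sense strand for a cytoplasmic polyadenylation element, the sequence bound by CPEB proteins. The letters searched were TTTTAT or TTTTAAT within 100 bases upstream of the cleavage signal AATAAA or ATTAAA. The signal itself was searched only in the last 40 bases. Of the 36 Kif genes with a long enough 3′ end in GENCODE M21 (GRCm38), 3 held such a pair (8.3%), against 2704 of 18703 protein-coding genes (14.5%). Among genes with enough counts to be tested below, it was 2 of 27 Kif genes (7.4%), against 1775 of 9679 protein-coding genes (18.3%). The 3 sites are shown because they are the only such pairs among the Kif genes, with the element and the signal in capitals. A match is a string of letters and not a shown binding site.
Kif18a, chr2:109341709-109341738, plus strand: taTTTTATtacttggtatATTAAAgatgta
Kif20b, chr19:34975706-34975735, plus strand: aaTTTTAATtcAATAAAtatatcagtaata
Kif26a, chr12:112181711-112181740, plus strand: gtTTTTATttgtgAATAAAagatgtgttga
Kif18a and Kif20b were among the 4 highest Kif genes by deposited FPKM, while Kif26a was too low to be tested. The element and the signal were 10 bases apart in Kif18a, 2 in Kif20b and 5 in Kif26a. The cleavage signal alone was found in the last 40 bases of 27 of the 36 Kif genes (75.0%), against 73.5% of all protein-coding genes.

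Promoters of cell-division genes often carry the cell cycle genes homology region, TTTGAA, just before the transcription start. In the RefSeq promoter table (GRCm38.p6), 31 of the 39 Kif genes had an entry. The letters TTTGAA, on either strand (TTCAAA on the other), lay in the last 30 bases before the start of 4 of these 31 genes (12.9%), against 464 of 27025 genes in the table (1.7%). Among the spindle and chromosome motors it was 3 of 9 (33.3%). These windows, and those of 2 highly expressed motors that lack the motif there, are printed with TTCAAA in capitals. In the Kif23 window the capitals mark ATTGG, which is CCAAT read on the opposite strand.
Kif11, chr19:37376352-37376381, plus strand: cgtctccatttTTCAAAattgaggcgcgga
Kif15, chr9:122951051-122951080, plus strand: ggggcgccaaaTTCAAAtctgcggccatct
Kif22, chr7:127042421-127042450, minus strand: ggggccccggtaaTTCAAAagagagaagcg
Kif23, chr9:61946800-61946829, minus strand: cccttcgccgcaggcggccgctgATTGGcc
Kif18a, chr2:109280708-109280737, plus strand: catctgaggcccagcctctggcgccaaact
The fourth gene with the motif was Kif26b. Over the whole 250 bases before the start, TTTGAA was found in 8 of 31 Kif genes (25.8%), against 18.3% of all genes, and CCAAT in 14 of 31 (45.2%), against 37.5%. Some of the starts in the table lie inside other annotated transcripts of the same gene, so the windows are not all the promoter used in the oocyte. Among the printed windows with TTCAAA, those of Kif15 and Kif22 lie inside the GENCODE genes, which begin at 122951046 and 127042471. The Kif11 window ends at 37376381, short of the GENCODE start at 37376403. These are the 3 of 9 spindle and chromosome motors, so that share holds only for the starts of the promoter table. On the minus strand, the Kif23 window stops at 61946800, short of the GENCODE start at 61946774. For Kif11 and Kif23 the bases between window and GENCODE start were not searched.

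Sequencing depth was similar across the set. The metformin libraries held 9914600, 10177033 and 10588292 counted reads, against 9289433, 8622281 and 10113655 in the control libraries. Oocyte transcripts were abundant in all 6 libraries, with 62427 to 80625 reads for Gdf9, a growth factor that oocytes secrete. The granulosa markers Foxl2, Amh and Amhr2 and the theca marker Cyp17a1 had 0 reads in every library, and Inha had between 0 and 16. Cyp19a1 (318 to 489 reads) and Pecam1 (230 to 365), which were on the lists for granulosa and endothelial cells, were present at similar counts in all 6. Control replicate 1 stood apart in blood and stroma markers, with 129 reads of Hba-a1 and 25 of Col1a1, where the other libraries had at most 1 of each. The part of these cells in the Kif values was not tested. No spike-in was used in the scaling, so the total RNA per oocyte is not measured, and in such pooled RNA fewer cells cannot be told apart from less RNA per cell.

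The 39 Kif genes spanned a wide range of expression. Of these, 34 had at least 1 read in some library and 29 passed the filter on low counts and were tested. By mean deposited FPKM (reads scaled to gene length and library total), 9 Kif genes were at 10 or above, 12 between 1 and 10, and 18 below 1. The median over all 12793 tested genes was 2.52 FPKM, and 17 of the 29 tested Kif genes were above it. All Kif genes together made up 0.335% ± 0.0520 of the counts in metformin libraries and 0.340% ± 0.0147 in control libraries (SD, n = 3 each). CPM below are counts scaled to a common library size, and the detection floor, 3 counts, was worth 0.285 to 0.339 CPM on that scale depending on the library.

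Motors of the spindle, the midzone and the chromosomes led the profile. Kif23 was the highest Kif gene in every library, at 107, 87.6 and 79.9 FPKM with metformin, against 94.0, 98.9 and 86.4 FPKM in controls. Its mean level was above that of 99.1% of all 55487 genes in the table, of which 26025 had a read in any library. Kif23 encodes MKLP1, the motor subunit of centralspindlin, which bundles midzone microtubules for cytokinesis. It supplied 24.7% ± 0.502 of the summed Kif FPKM with metformin and 24.8% ± 0.493 in controls (SD, n = 3 each), so this share differed by less than the spread between replicates. The 4 highest genes, Kif23, Kif4, Kif20b and Kif18a, made up 57.3% ± 0.828 of it with metformin and 57.5% ± 0.191 in controls.

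**Figure D1:**
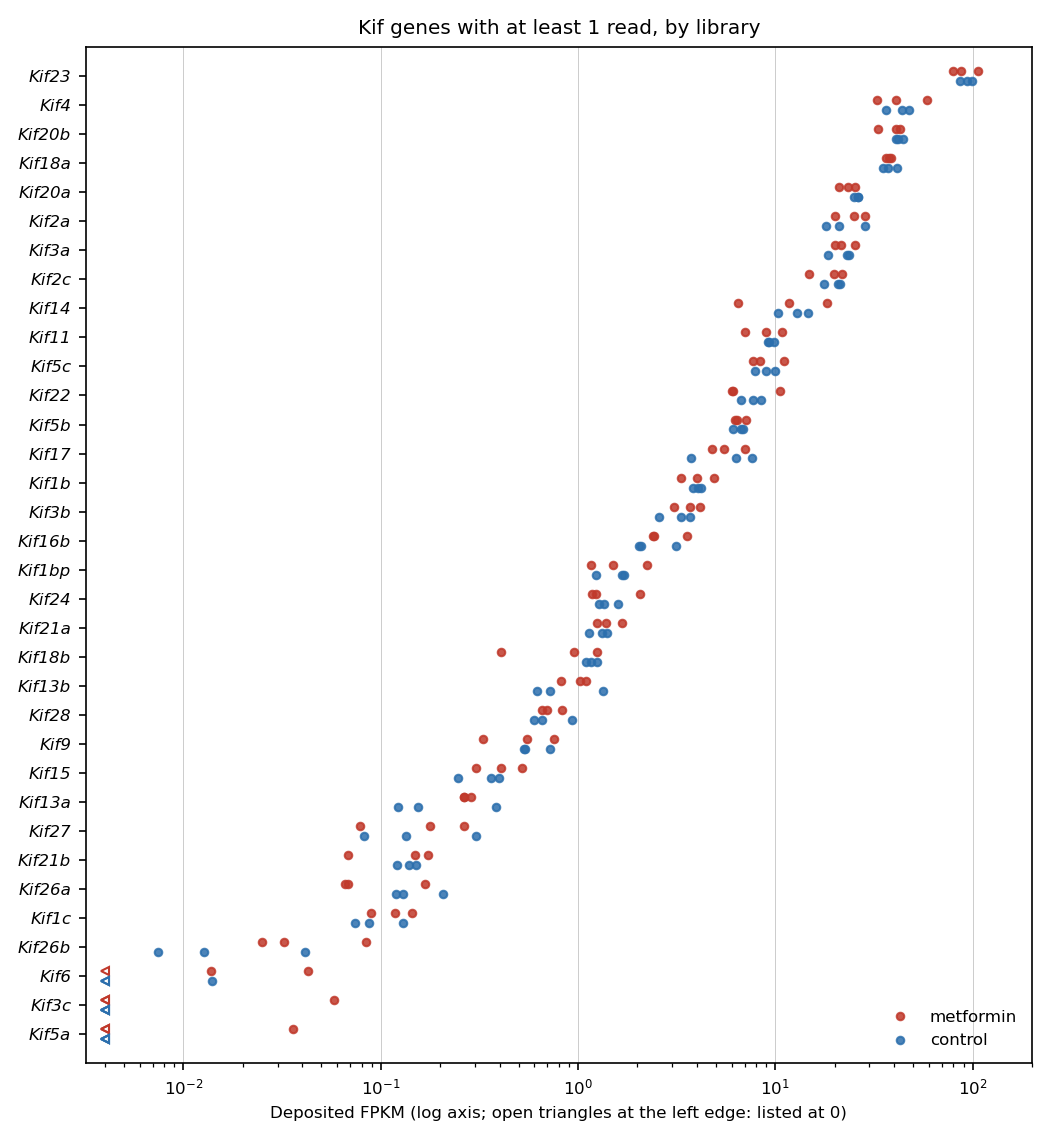
Deposited FPKM (log axis) of the 34 Kif genes with at least 1 read, ordered by mean level; each point is a library, metformin in red and control in blue. Kif23 stands alone at the top, and Kif3c and Kif5a have reads in a single library.

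The order below Kif23 was partly a matter of how gene length was counted. On the deposited FPKM scale the next were Kif4 (43.3), Kif20b (40.8), Kif18a (37.7), Kif20a (24.6), Kif2a (23.6), Kif3a (22.0) and Kif2c (19.4), all as means of 6 libraries. Between neighbours in the order of levels, only Kif23 over Kif4 and Kif18a over Kif20a had ranges that did not overlap, of 33 neighbouring pairs. Kif4 was above Kif20b in 2 of 6 libraries, and Kif20b above Kif18a in 4 of 6. The levels of Kif4, Kif20b and Kif18a therefore cannot be ordered beyond their spread on this scale.

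The length behind each deposited FPKM was recovered from the ratio of the count to the FPKM. For 25 of the 27 Kif genes with at least 20 counts in a library, that length equalled the sum of all distinct annotated exons to within 1 base, with exons that overlap between transcripts counted repeatedly. It was between 1.0 and 4.10 times the longest coding transcript, with a median of 1.69. For Kif23 it was 10831 bases, against 3398 in the longest coding transcript, and for Kif18a 11881 against 3369. Kif3b, which has a single annotated transcript, had the same length on both. The deposited FPKM thus understates genes with many annotated isoforms relative to genes with few.

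Counts per kilobase of the longest coding transcript kept Kif23 first, at 294 CPM per kilobase, and put Kif18a second at 134. Kif20b followed at 66.5, Kif4 at 49.5, Kif20a at 46.6 and Kif2c at 42.3. Kif18a, a plus-end motor that dampens chromosome movements at the spindle equator, was above Kif20b in all 6 libraries on this scale. Of the 10 highest Kif genes by deposited FPKM, 9 were also among the 10 highest on this scale, and 9 on union exon length. Which transcripts the oocyte uses was not measured, so neither scale is exact.

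**Figure D2:**
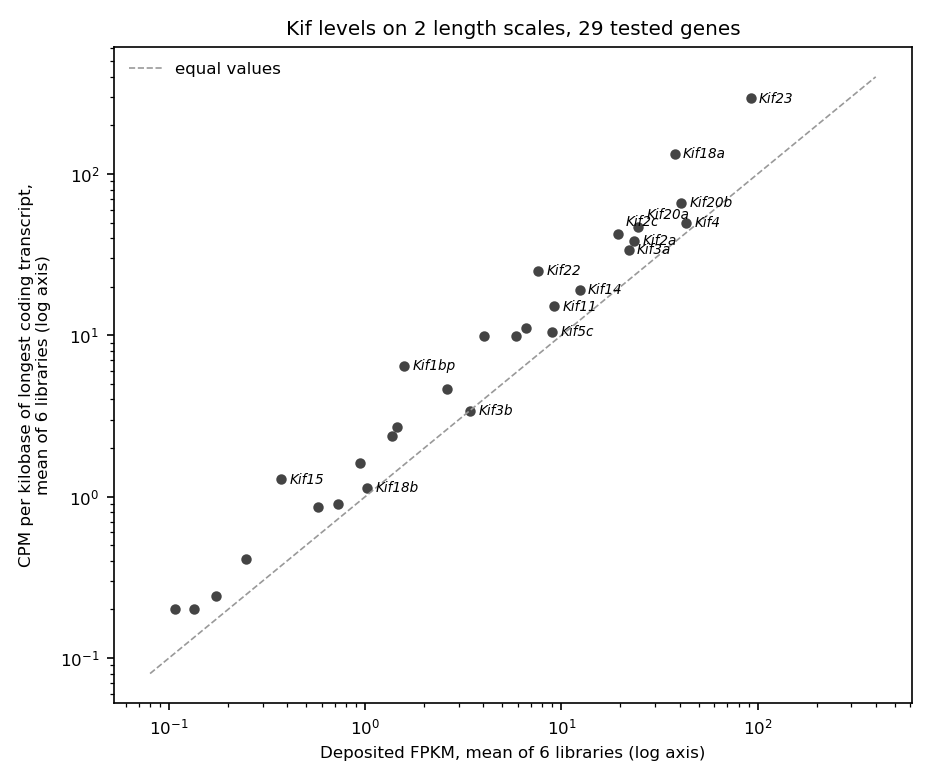
Mean level of the 29 tested Kif genes over 6 libraries by deposited FPKM (horizontal, log axis) and by CPM per kilobase of the longest coding transcript (vertical, log axis); the dashed line marks equal values. Kif3b, at 3.42 FPKM and 3.41 CPM per kilobase, lies on the line, while Kif18a, Kif22, Kif15, Kif23 and Kif1bp lie far above it.

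Metformin was compared with control by the edgeR quasi-likelihood test over all 12793 tested genes. No Kif gene passed the threshold: 0 of 29 reached an adjusted p of 0.05, where 0.0391% of all tested genes did (0.0235% higher and 0.0156% lower with metformin, 5 genes in all). At an unadjusted p under 0.05 it was also 0 of 29, against 1.5% of all tested genes, and DESeq2 likewise called 0. The smallest unadjusted p of a Kif gene was 0.218, for Kif18b, and every adjusted p was 1.00. Fitted log2 fold changes (metformin over control) ran between -0.43 and 0.34, with 17 above 0 and 12 below and a median of 0.02, beside a median of 0.01 over all tested genes. The 95% interval of the fold change lay within 2-fold for 25 of the 29 and within 1.5-fold for 16. The 4 genes with wider intervals, Kif18b, Kif13a, Kif27 and Kif1c, averaged under 5 CPM in each group. Missing the threshold does not show that levels were equal, and these intervals give the range that the 6 libraries leave.

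**Figure D3:**
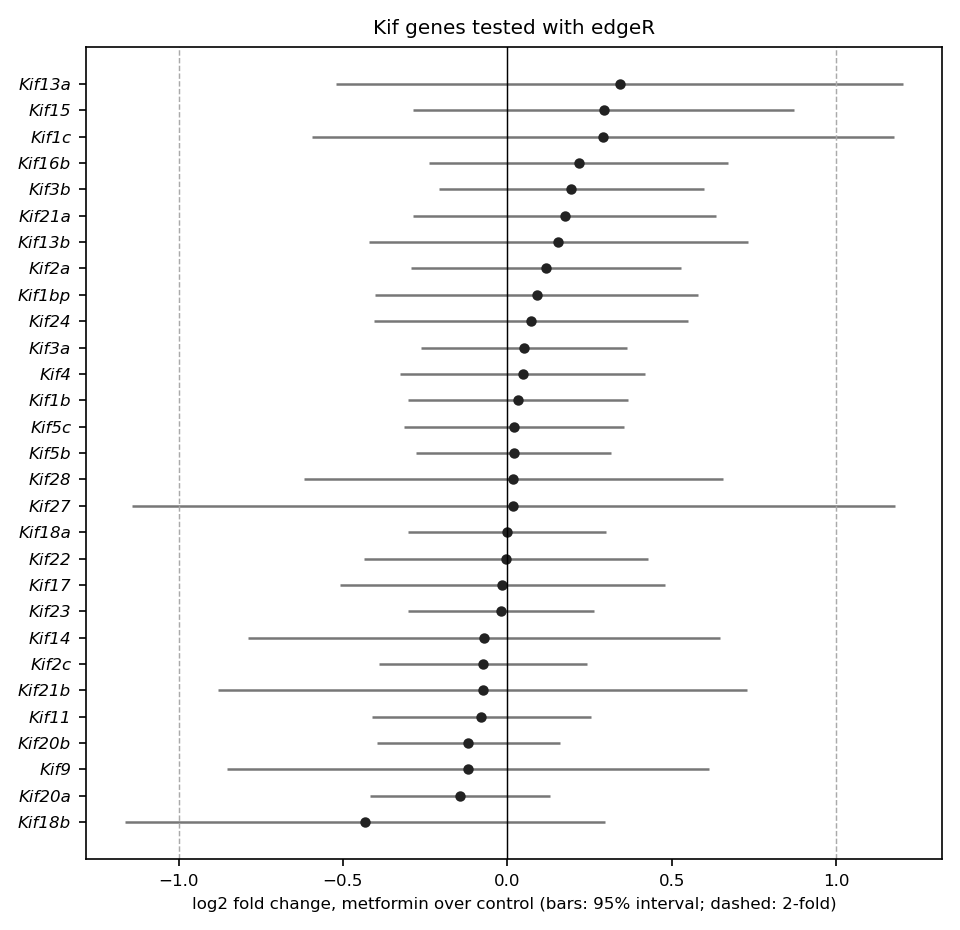
Log2 fold change, metformin over control, of the 29 tested Kif genes with its 95% interval (edgeR, 3 libraries each); dashed lines mark 2-fold. Every interval spans 0, and those of Kif18b, Kif13a, Kif27 and Kif1c cross a 2-fold line.

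The 10 spindle and chromosome motors were all tested, with fitted values of 2 above 0 and 8 below, a median of -0.05 and 0 calls. Their summed level was 265 ± 43.6 FPKM with metformin and 273 ± 12.5 FPKM in controls (SD, n = 3 each). Kif11 (chr19:37376403-37421859, GRCm38) encodes Eg5, the tetrameric motor that slides antiparallel microtubules apart and keeps the spindle bipolar. It had 80.7, 71.1 and 60.6 CPM with metformin, against 76.3, 71.2 and 76.8 CPM in controls. The groups overlapped, and the log2 fold change was -0.08 ± 0.152 (SE). Kif15 (chr9:122951046-123018733), which can stand in for Eg5 in cultured human cells, was a minor species with 86, 69 and 54 counts with metformin, against 38, 57 and 61 in controls. Its log2 fold change of 0.29 ± 0.265 (SE) came with an overlap between the groups, and control replicate 1 was the lowest of the 6 libraries. Without control replicate 1 the log2 fold change of Kif15 was 0.097, and without metformin replicate 1 it was 0.14. Per kilobase of transcript, Kif11 was 10.5 ± 0.558 times Kif15 with metformin and 14.2 ± 4.40 times in controls (SD, n = 3 each). The ratios were 9.94, 10.6 and 11.05 with metformin, against 19.3, 11.14 and 12.3 in controls, so the ranges did not overlap but nearly met. Control replicate 1, where Kif15 was lowest, gave the ratio of 19.3, and the difference in ratio was not tested. Ratios were taken for several pairs of genes, and only for this pair did the ranges not overlap. How often such ratios fail to overlap over all genes was not counted. Some reads of Kif11 may belong to Gm15697, a pseudogene that matches it at 90.6% over 1691 bases and held 6 to 18 reads of its own.

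The chromokinesins bind chromosome arms and push them away from the poles. Kif4 (chrX:100625737-100727214), which also sets midzone length with Prc1, had 315, 234 and 203 CPM with metformin, against 265, 246 and 217 CPM in controls. Metformin replicate 1 was the highest of the 6 libraries and metformin replicate 3 the lowest, and the log2 fold change was 0.05 ± 0.170 (SE). Kif22 (chr7:127027729-127042471), known as Kid, had 70.0, 42.1 and 46.5 CPM with metformin, against 52.6, 57.4 and 49.2 CPM in controls. Its fitted difference was -0.00 ± 0.197 (SE), with metformin replicate 1 above all controls and the others below all controls. The exons of Kif4 overlap those of Pdzd11 over 15.1% of their length, and the library kit does not keep the strand, so reads there cannot be assigned. Pdzd11 itself had 320 to 550 counts a library.

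Kif18a (chr2:109280738-109341747) had 433, 432 and 485 CPM with metformin, against 407, 429 and 514 CPM in controls. The means were 450 ± 30.5 and 450 ± 56.5 CPM (SD, n = 3 each), and the 95% interval of the log2 fold change ran from -0.30 to 0.30. Its paralogue Kif18b (chr11:102905529-102925124), which shortens astral microtubules, was far lower, with 46, 36 and 16 counts with metformin, against 40, 40 and 41 in controls. Kif18b had the most negative fitted value of the family, -0.43 ± 0.334 (SE), with a 95% interval from -1.16 to 0.30. Metformin replicate 3 was the lowest of the 6 libraries in counts and in CPM. Without metformin replicate 3 the log2 fold change of Kif18b was -0.13. Per kilobase, Kif18a was 97.7, 121 and 293 times Kif18b with metformin, against 95.6, 93.7 and 120 times in controls. The metformin mean of 170 ± 107 times was 109 times without metformin replicate 3, beside 103 ± 14.6 times in controls (SD, n = 3 each).

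Kif23, Kif20b, Kif20a and Kif14 act at the midzone or in cytokinesis. Kif23 (chr9:61915905-61946774) had 1093, 948 and 938 CPM with metformin, against 995, 1044 and 978 CPM in controls. The log2 fold change was -0.02 ± 0.129 (SE), and the 95% interval of the fold change ran from 0.812 to 1.2. Kif20b (chr19:34922361-34975745), a midbody motor needed for abscission, had 348, 389 and 327 CPM with metformin, against 372, 395 and 389 CPM in controls. The groups overlapped, with a log2 fold change of -0.12 ± 0.127 (SE). Kif20a encodes MKLP2, which brings the chromosomal passenger complex to the midzone.

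Kif20a (chr18:34624613-34633277) was the only Kif gene whose groups did not overlap, at 167, 162 and 159 CPM with metformin, against 178, 170 and 191 CPM in controls. That is 1 of 29 tested Kif genes, where 5.63% of all tested genes did not overlap. The log2 fold change was -0.14 ± 0.125 (SE), unadjusted p = 0.269 and adjusted p = 1.00 by edgeR. On the deposited FPKM, which divides by unscaled library totals, the groups overlapped, at 25.4, 23.3 and 21.1 with metformin, against 26.2, 25.1 and 26.3 in controls. Its exons overlap those of the opposite-strand gene Cdc23 over 29.3% of their length, so some of its reads may be from Cdc23, which had 207 to 353 counts a library.

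Kif14 (chr1:136466343-136531511), which acts with citron kinase in cytokinesis, had 238, 163 and 97.0 CPM with metformin, against 175, 199 and 150 CPM in controls. The highest metformin library was 2.45 times the lowest, against 1.32 times among controls, and the difference between group means (166 ± 70.6 with metformin, 175 ± 24.3 in controls, SD, n = 3 each) was smaller than either spread. The 95% interval of its log2 fold change ran from -0.79 to 0.65.

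Of the 7 genes of the microtubule-depolymerising kinesin-13 and kinesin-8 families, 5 were tested, with fitted values of 2 above 0 and 3 below. Kif18a and Kif18b were counted here as well as among the spindle and chromosome motors. Kif2a (chr13:106958996-107022126), a kinesin-13 that works at spindle poles, had 232, 216 and 186 CPM with metformin, against 152, 177 and 256 CPM in controls. Control replicate 3 was above all other libraries and the other control libraries below all others, and the log2 fold change was 0.12 ± 0.187 (SE). Kif2c (chr4:117159639-117182639), or MCAK, which corrects wrong attachments at kinetochores, had 127, 124 and 100.3 CPM with metformin, against 126, 130 and 115 CPM in controls. Its log2 fold change was -0.07 ± 0.144 (SE). The annotated lincRNA gene Gm4961 matches Kif2c at 91.7% over 1443 bases and had 330 to 555 counts a library, so reads may be split between them. The exons of Kif2a overlap those of Dimt1 over 19.2% of their length. Kif2b, another kinesin-13, had 0 reads in all 6 libraries. Kif24, a centriolar kinesin-13, was tested at 1.45 FPKM with a log2 fold change of 0.07.

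Of the 14 cargo motors, 13 had a read and 11 were tested, with fitted values of 9 above 0 and 2 below, a median of 0.05 and 0 calls. Their summed level was 67.8 ± 13.3 FPKM with metformin and 66.7 ± 9.57 FPKM in controls (SD, n = 3 each). Kif14, also counted among the spindle and chromosome motors, is in this group, with a mean of 12.1 FPKM with metformin and 12.7 in controls. Kif5b (chr18:6201002-6242174) and Kif5c, heavy chains of the organelle motor kinesin-1, were expressed side by side. Kif5b was the steadiest of the named genes, at 68.0, 65.4 and 69.0 CPM with metformin, against 68.0, 66.7 and 65.0 CPM in controls. Kif5c had 83.2, 66.7 and 67.0 CPM with metformin, against 77.8, 70.1 and 66.0 CPM in controls. Per kilobase of the longest coding transcript, Kif5c was 0.943 ± 0.118 times Kif5b with metformin and 0.942 ± 0.0581 times in controls, while by deposited FPKM it was 1.37 and 1.36 times. Kif5a, the neuronal heavy chain, had 3 reads in metformin replicate 3 and 0 in the other 5 libraries.

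Kif3a (chr11:53567379-53601967) and Kif3b (chr2:153291413-153333390) encode the motor subunits that pair in heterotrimeric kinesin-2, a motor of cilia and vesicles. Kif3a had 116, 97.6 and 113 CPM with metformin, against 112, 109 and 93.4 CPM in controls. Kif3b had 22.2, 20.7 and 18.6 CPM with metformin, against 18.4, 20.2 and 15.2 CPM in controls. The groups overlapped for both genes, with log2 fold changes of 0.05 ± 0.143 for Kif3a and 0.19 ± 0.184 for Kif3b (SE). Per kilobase, Kif3a was 9.51 ± 1.21 times Kif3b with metformin and 10.5 ± 0.749 times in controls (SD, n = 3 each). By deposited FPKM the ratio was 6.197 ± 0.788 with metformin and 6.84 ± 0.488 in controls, so Kif3a was well above Kif3b on both scales and in all 6 libraries. Kif3c, an alternative partner of Kif3a, had 8 reads in metformin replicate 2 and 0 in the other 5 libraries.

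Of the other cargo motors, Kif1b (chr4:149176319-149307693), which carries mitochondria and synaptic vesicle precursors, had 116, 83.8 and 108 CPM with metformin, against 99.1, 102 and 100.2 CPM in controls. The log2 fold change was 0.03 ± 0.153 (SE), and the control libraries lay inside the range of the metformin ones. Kif16b (chr2:142617474-142901531), a motor of early endosomes, had 38.3, 27.6 and 29.6 CPM with metformin, against 23.1, 34.9 and 24.2 CPM in controls, a log2 fold change of 0.22 ± 0.208 (SE). Leaving out a single library put that of Kif16b between 0.060, without metformin replicate 1, and 0.43, without control replicate 2. Kif13a (chr13:46749087-46929867), a motor of recycling endosomes, had 30, 31 and 35 counts with metformin, against 13, 38 and 18 in controls. Its log2 fold change of 0.34 ± 0.394 (SE) was the highest of the family, and control replicate 2 exceeded all metformin libraries. Without control replicate 2 the log2 fold change of Kif13a was 0.96. Kif17, a homodimeric motor of the kinesin-2 family, averaged 33.9 ± 4.48 CPM with metformin and 34.3 ± 10.5 CPM in controls (SD, n = 3 each).

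The cilium and Hedgehog group overlaps the cargo motors through Kif3a, Kif3b and Kif17. Of its 7 genes 5 were tested, with fitted values of 4 above 0 and 1 below and 0 calls. Kif7, the ciliary-tip kinesin of Hedgehog signalling, and Kif19a, which limits cilium length, had 0 reads in all 6 libraries. Kif12 and Kif1a, the latter a neuronal vesicle motor, were also at 0 in every library, as Kif2b was. These 5 genes may be present below the floor of 3 counts. Kif6, Kif3c and Kif5a had no more than 20 reads in all libraries together.

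The spread between metformin libraries was wider than between control libraries for several motors. Kif18b ranged 2.67-fold among metformin libraries and 1.08-fold among controls, while Kif13a ranged 1.26-fold and 3.14-fold, the opposite way. Metformin replicate 1 was the highest of the 3 metformin libraries for 22 of the 29 tested Kif genes (75.9%), against 37.4% of all tested genes. Metformin replicate 3 was the lowest for 16 (55.2%), against 36.0% of all tested genes. Among the 10 spindle and chromosome motors, these were 8 and 8. The summed Kif level was highest in metformin replicate 1 and lowest in metformin replicate 3. It was 434, 361 and 317 FPKM in metformin replicates 1, 2 and 3, against 379, 391.9 and 356 FPKM in control replicates 1, 2 and 3. The deposited FPKM divides by unscaled library totals. On the scaled CPM the sums were 3687.3, 3260.8 and 3122.2 with metformin, against 3313.5, 3458.8 and 3400.3 in controls, in the same order of replicates. Metformin replicate 1 was again the highest and metformin replicate 3 the lowest, but the metformin sums lay proportionally closer together than in FPKM. The group means of 371 ± 59.3 and 376 ± 17.9 FPKM (SD, n = 3 each) differed by less than the spread between replicates. What sets metformin replicates 1 and 3 apart was not tested.

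**Figure D4:**
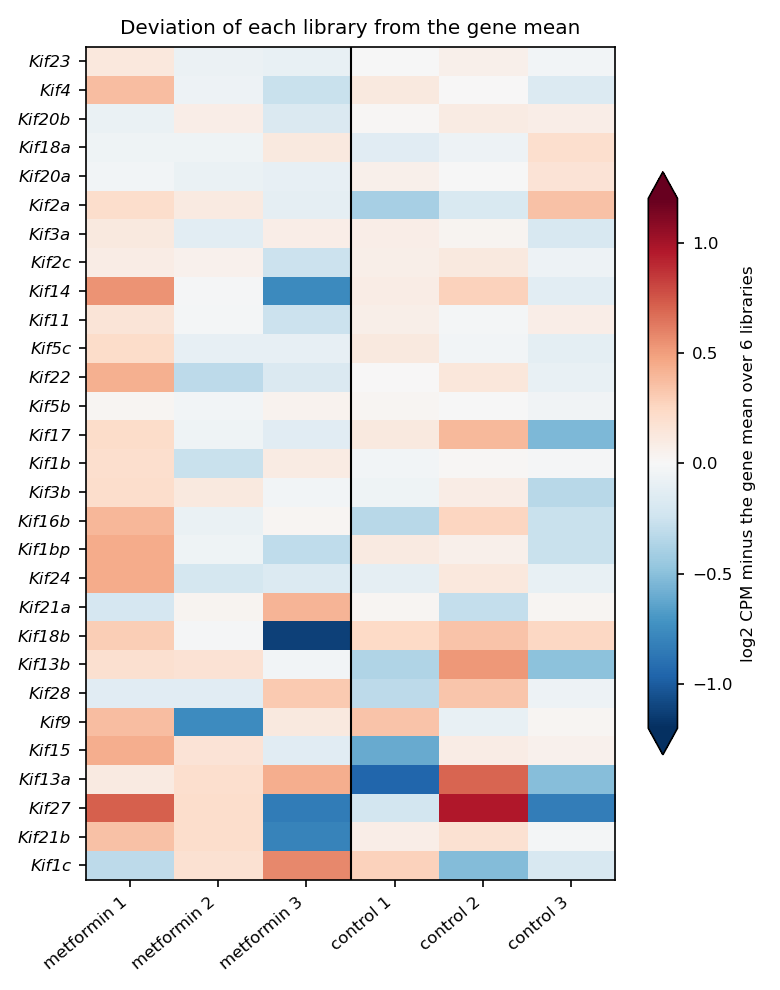
Heat map of the 29 tested Kif genes (rows, by mean deposited FPKM) in 6 libraries (columns, metformin left, control right); colour gives log2 CPM minus the mean of the gene over the 6 libraries. Metformin 1 is mostly red and metformin 3 mostly blue, and the largest deviation is 1.12.

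Genes that work with these motors were tested in the same fit. Of 56 partner genes (other kinesins, adaptors and light chains, spindle partners, dynein and dynactin), 48 were tested and 0 passed the threshold, with fitted values of 24 above 0 and 24 below and a median of 0.01. At an unadjusted p under 0.05 it was also 0 of 48. Of the 16 spindle partners, 11 had fitted values below 0, and of the 20 tested dynein and dynactin genes 14 had values above 0. Dynlrb1, a dynein light chain, was the only 1 of the 48 tested partners without overlap between groups, where 5.63% of all tested genes did not overlap, at 31.8, 33.9 and 31.5 CPM with metformin, against 28.0, 26.3 and 30.6 CPM in controls. Cenpe, a kinetochore motor whose symbol is not Kif, was nearly as high as Kif23 by deposited FPKM, at 89.2 ± 17.6 FPKM with metformin and 91.4 ± 10.1 FPKM in controls (SD, n = 3 each). Per kilobase of the longest coding transcript it was lower, at 106 ± 14.0 CPM with metformin and 109 ± 8.88 CPM in controls. Kifc1, the minus-end directed kinesin-14, had few counts, at 84, 48 and 36 with metformin, against 56, 32 and 39 in controls. Copies of similar sequence were searched only for the Kif genes, so reads that Kifc1 may share with such copies were not examined.

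Levels of some motor genes were set beside those of their binding partners. Kif23 per kilobase was 9.93 ± 1.92 times Racgap1, the other subunit of centralspindlin, with metformin and 9.08 ± 1.83 times in controls (SD, n = 3 each). Kif3a was 42.8 ± 8.26 times and Kif3b 4.61 ± 1.34 times Kifap3, the third subunit of kinesin-2, with metformin, against 47.6 ± 3.69 and 4.56 ± 0.669 times in controls. Kif5b at 11.2 ± 0.304 CPM per kilobase was above Klc1, the most abundant light chain, at 4.12 ± 0.938, with metformin, against 11.0 ± 0.253 and 4.21 ± 0.963 in controls. Kif4 was 0.288 ± 0.0430 times Prc1 per kilobase with metformin and 0.262 ± 0.0152 in controls, but 1.27 and 1.16 times by deposited FPKM, so which of them is higher depends on the length used. The pairs were chosen after their values were seen. Levels of mRNA do not give levels of protein.

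**Figure D5:**
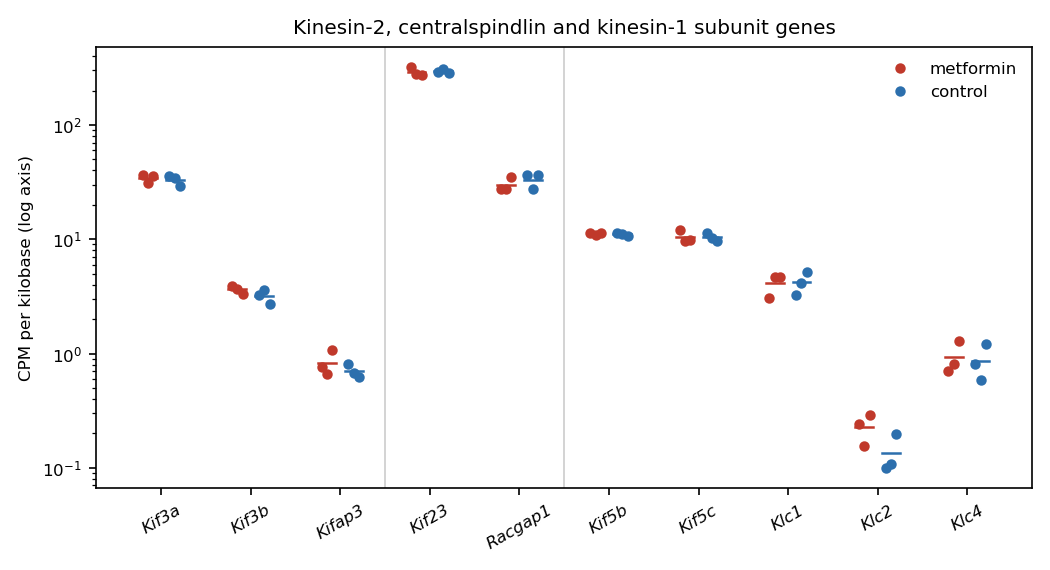
CPM per kilobase of the longest coding transcript (log axis) of the genes of kinesin-2 (left), centralspindlin (middle) and kinesin-1 (right); each point is a library, metformin in red left of control in blue, and bars are group means. Kif3a lies above Kif3b and Kifap3, Kif23 above Racgap1, and Kif5b and Kif5c above the light chains Klc1, Klc2 and Klc4 in both groups.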

How the data were processed

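SMART-Seq HT libraries of 3 metformin and 3 control oocyte samples were used. The kit primes on poly(A) tails and, without strand information or molecular identifiers, amplifies cDNA by PCR, so the floors given cover counting error only. Tail length was not measured, so the levels compared between genes may also depend on their tails. CASAVA 1.8 and TopHat2 2.0.6 are named, with mm10, in the submitters' processing notes. Which program counted reads, on which annotation, is not given in the sources used here. For each gene and library the authors deposited whole-number read counts and FPKM values, per the file headers; counts entered all tests. Of 55487 identifiers, 55141 matched a GENCODE M21 symbol.

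The test was edgeR 4.0.16 (R 4.3.3) with TMM scaling, filterByExpr (minimum count 10), a robust quasi-likelihood fit of group, and Benjamini-Hochberg adjustment over 12793 genes at 0.05. SE is the log2 fold change over the square root of F. CPM uses TMM-scaled library sizes. Alternatives were RLE and no scaling, other filters, DESeq2 1.42.0, a replicate block and leaving out each library; a further length scale, CPM per kilobase of the longest coding transcript, was added after seeing the data. Scripts were tested on simulated data. Named genes were the 8 highest by FPKM, the 4 smallest p in each direction, and fixed spindle and transport motors. Members and lists were chosen with earlier results of these data known.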

Additional observations from a re-analysis of the deposited data

How the results depend on the processing

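No Kif gene and no partner gene passed the threshold under RLE scaling, no scaling, no count filter, a mean of at least 10 CPM, DESeq2, the replicate block, or without any single library; the lowest adjusted p of a Kif gene in any fit was 0.997. Over all genes, DESeq2 called 9 and fits without a single library between 5 and 12, against 5. The replicate block gave 7 calls over all genes and changed no call of a Kif gene. Same-numbered libraries correlated in their deviations at 0.144, 0.044 and 0.200, so the numbers were not taken to pair samples, although each library correlated best with its own number. Fitted signs of the named Kif genes changed in 20 of 213 alternative fits, in 10 of 18 genes. Without a single library the log2 fold change ran from -0.035 to 0.36 for Kif2a, -0.093 to 0.021 for Kif23, -0.43 to 0.20 for Kif14, -0.26 to 0.13 for Kif22, -0.15 to 0.18 for Kif4, -0.071 to 0.11 for Kif18a, -0.027 to 0.12 for Kif3a, -0.066 to 0.16 for Kif1b, -0.14 to 0.026 for Kif2c and -0.18 to 0.021 for Kif11; Kif15 (0.097 to 0.42), Kif16b (0.060 to 0.43), Kif3b (0.087 to 0.29), Kif20b (-0.19 to -0.063), Kif5b (0.0026 to 0.040), Kif13a (0.041 to 0.96) and Kif18b (-0.73 to -0.13) moved by over 1.5 times without changing sign. Kif18a also turned to 0.0042 with the replicate block. The cause was not tested. At a mean of at least 10 CPM, Kif13a, Kif15 and Kif18b were not tested. Genes with few counts have wide intervals, and 3 libraries a group limit all of them.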
